A study of Saccharomyces cerevisiae with 116 samples.

Results

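The 39 genes described here are nuclear genes of the Saccharomyces cerevisiae respiratory chain and ATP synthase, out of 6708 open reading frames counted in the libraries with added fission yeast. They were chosen by name, with earlier results of these data known. They were 5 genes of mobile carriers and NADH dehydrogenases (CYC1, CYC7, NDE1, NDE2 and NDI1), 4 of complex II (SDH1 to SDH4), 9 of complex III (CYT1, RIP1, COR1, QCR2 and QCR6 to QCR10), 9 of complex IV (COX4, COX5A, COX5B, COX6, COX7, COX8, COX9, COX12 and COX13) and 12 of the ATP synthase (ATP1 to ATP5, ATP7, ATP14 to ATP18 and ATP20). Their messenger RNA was counted in 116 sequencing libraries of budding yeast strain BY4741, a MATa laboratory strain of the S288C background. All cells had grown for 7 to 10 generations in YPD, a rich glucose medium, and received NaCl or a heat shock while treated with cycloheximide, nocodazole or alpha factor, or while growing asynchronously. The title puts the question of how growth and the stress response can be separated. Cycloheximide, an inhibitor of translation, was given for 2 h at the labels 0.1 and 0.2, whose unit is not given. Nocodazole, which depolymerises microtubules and holds cells in mitosis, was given at 10 ug/ml for 2 h, or for 3.5 h in 4 libraries. Alpha factor, the mating pheromone that holds MATa cells in G1, was given at 25 uM for 2 h, and asynchronous cells received no drug. T0 marks cells before the stress, and the other T labels were read as min after it. The libraries with added Schizosaccharomyces pombe cells, called spiked here, held 3 each of alpha factor T30, alpha factor T0, asynchronous T30 and asynchronous T0, all for salt. In the unspiked libraries, salt in nocodazole and in alpha factor had 3 libraries each at T30 and 2 each at T0, and cycloheximide 0.1 and 3.5 h nocodazole had 2 at each time. Heat in nocodazole and in alpha factor had 3 libraries each at T10 and 2 each at T0. Among the 3 stressed libraries of those arrested groups, 1 carries the label 0.5N or 33c, 1 the label 0.7N or 37c, and 1 no dose. The labelled pair shares replicate number 2 in each case, so these 3 libraries carry only 2 replicate numbers.

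Respiration passes electrons from NADH and succinate through ubiquinone, complex III and cytochrome c to complex IV, and the ATP synthase uses the proton gradient this builds. Budding yeast has no proton-pumping complex I; its NADH is oxidised by single-subunit dehydrogenases, NDI1 on the inner and NDE1 and NDE2 on the outer face of the inner mitochondrial membrane. On glucose many of these genes are repressed, and the Hap2/3/4/5 complex and the heme-responsive factor Hap1 are known activators of several of them. Cytochrome c and subunit V of complex IV exist as isoform pairs, of which CYC1 and COX5A are the aerobic forms and CYC7 and COX5B the forms known for their relative rise when oxygen or heme is low.

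S. cerevisiae counts per library were 1555271 to 5469230 in the spiked, 1794997 to 7043273 in the unspiked and 365088 to 5081617 in the gradient libraries. The labels' states showed in marker genes, given as CPM (S. cerevisiae counts scaled to a library total of 1e6). FUS1, a pheromone-induced gene, had 641 to 787 CPM in spiked alpha factor T0 libraries, against 17.6 to 22.9 in spiked asynchronous T0 libraries. The unspiked asynchronous T0 libraries of the salt and heat series had 15.7 and 10.7 CPM. The mitotic cyclin gene CLB2 had 210 to 219 CPM in nocodazole T0 libraries of the salt series, against 22.4 to 26.2 in alpha factor T0 libraries. In the unspiked asynchronous T0 libraries of the salt and heat series CLB2 had 140 and 146 CPM. In the salt series CLB2 thus set nocodazole further apart from alpha factor than from asynchronous cells. The salt-induced transporter gene STL1 had 56.8 CPM in the nocodazole and 181 CPM in the alpha factor library labelled 0.5N, where the other T30 libraries had 4012 to 4509 and 972 to 1042 CPM, so the 0.5N libraries stood apart. Every test below is an edgeR quasi-likelihood F test across all genes tested (5744 spiked, 5836 unspiked salt, 5689 unspiked heat) unless another is named. A change is called where the Benjamini-Hochberg adjusted p is below 0.05, and errors are standard errors of the log2 change. These fits hold the group only, and pairing by replicate number enters only where a replicate block is named. All 39 genes passed the filter on low counts. The labels do not say that each library came from its own culture, so the p-values measure the spread between these libraries.

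Together the 39 genes took up a small part of the RNA, and that part was larger 30 min after salt. In alpha factor they held 0.476 ± 0.033% of S. cerevisiae counts at T30 and 0.392 ± 0.043% at T0 (SD, n = 3 each). In asynchronous cells they held 0.518 ± 0.029% at T30 and 0.340 ± 0.025% at T0 (SD, n = 3 each). The 9 complex III genes held 0.101 ± 0.0068% at T30 and 0.0734 ± 0.0091% at T0 in alpha factor, and in asynchronous cells 0.129 ± 0.008% at T30 and 0.0610 ± 0.0039% at T0. Complex II held 0.0718 ± 0.0185% at T30 and 0.0251 ± 0.0048% at T0 there, while the 12 ATP synthase genes held 0.217 ± 0.019% at T30 and 0.183 ± 0.008% at T0. These shares are descriptions without a test, and in bulk libraries more RNA per cell cannot be told apart from more cells carrying it.

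**Figure D1:**
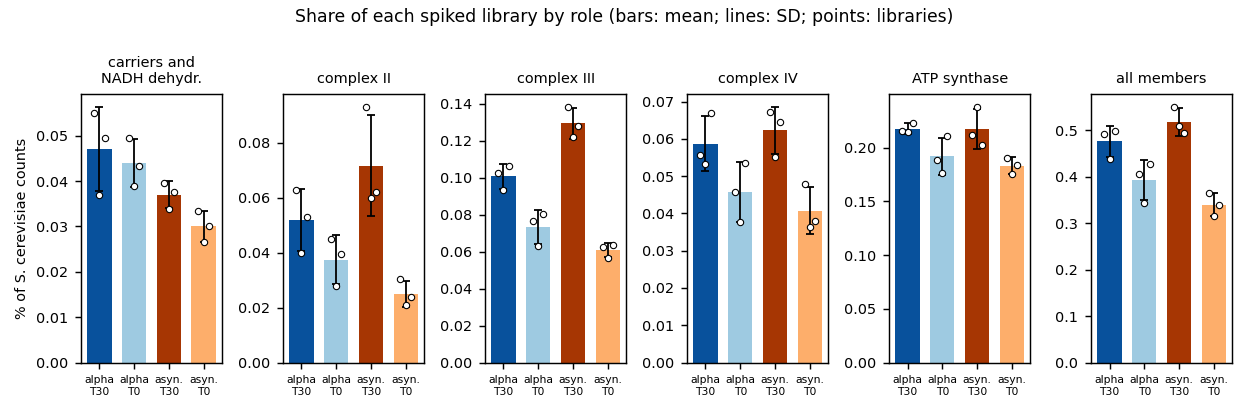
Share of S. cerevisiae counts (percent, axis from 0) held by each group of respiratory genes and by all 39, in spiked libraries of alpha factor T30, alpha factor T0, asynchronous T30 and asynchronous T0. Bars are means, lines SD and points the 3 libraries of a group; the T30 bars of complexes II and III stand furthest above their T0 bars in proportion in asynchronous cells, where those of the ATP synthase differ least.

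Levels between genes were compared per kb of gene length, introns included, which understates QCR9, QCR10 and COX5B. In asynchronous T0 cells the highest were COX9, a small complex IV subunit, at 588 ± 84 reads per kb, scaled as CPM are, ATP15, the epsilon subunit of the ATP synthase, at 537 ± 28, and ATP2, its catalytic beta subunit, at 442 ± 61 (SD, n = 3). COX9 and ATP15 overlapped in their spread. The lowest were NDE2 at 1.19 ± 0.24 and CYC7 at 5.07 ± 1.9 scaled reads per kb, so the 2 isoform genes that moved most with salt began at the bottom of the group. By asynchronous T30 CYC1 was the lowest at 11.2 ± 1.6 scaled reads per kb, against 73.4 ± 10 at T0 (SD, n = 3 each).

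Salt changed the pair of cytochrome c genes in opposite directions in asynchronous cells. CYC7 (YEL039C) had 59.7, 24.5 and 79.1 CPM in T30 libraries, against 1.41, 0.914 and 1.95 CPM in T0 libraries, which rest on 4 or 5 reads each. CYC1 (YJR048W) had 2.92, 3.36 and 2.57 CPM in T30 libraries, against 23.4, 18.5 and 18.1 CPM in T0 libraries, and the T30 values rest on 4 to 17 reads. The groups did not overlap for either gene. CYC7 rose by 5.15 ± 0.56 on the log2 scale (adjusted p = 1.7e-05) and CYC1 fell by 2.85 ± 0.30 (adjusted p = 1.46e-05). Per gene length, CYC7 made up 93.2 ± 4.91% of the summed cytochrome c RNA at T30 and 6.50 ± 2.59% at T0 (SD, n = 3 each).

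The external NADH dehydrogenases moved apart as well. NDE2 (YDL085W) had 23.6, 16 and 14.8 CPM in asynchronous T30 libraries, against 1.41, 1.46 and 1.95 CPM in T0 libraries, the last on 4 to 8 reads each. It rose by 3.38 ± 0.45 on the log2 scale (adjusted p = 7.12e-05). NDE1 (YMR145C), its more abundant paralog, had 159, 152 and 112 CPM in T30 libraries, against 267, 197 and 233 CPM in T0 libraries, without overlap. NDE1 fell by 0.85 ± 0.26 (adjusted p = 0.0192), but the call was lost without asynchronous T0 replicate 1 or T30 replicate 3 (changes of -0.71 to -0.65, adjusted p 0.067 to 0.0721), and with library sizes from S. pombe counts the change was -0.26 (adjusted p = 0.653). NDE1 stayed the major form: NDE2 was 11.6 ± 1.74% of the pair per gene length at T30 and 0.718 ± 0.160% at T0. NDI1 (YML120C), the internal enzyme, had 150, 142 and 168 CPM at T30 and 41.0, 48.1 and 46.8 CPM at T0, and rose by 1.61 ± 0.19 (adjusted p = 2.83e-05). How reads that match both members of an isoform pair were counted is not given.

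**Figure D2:**
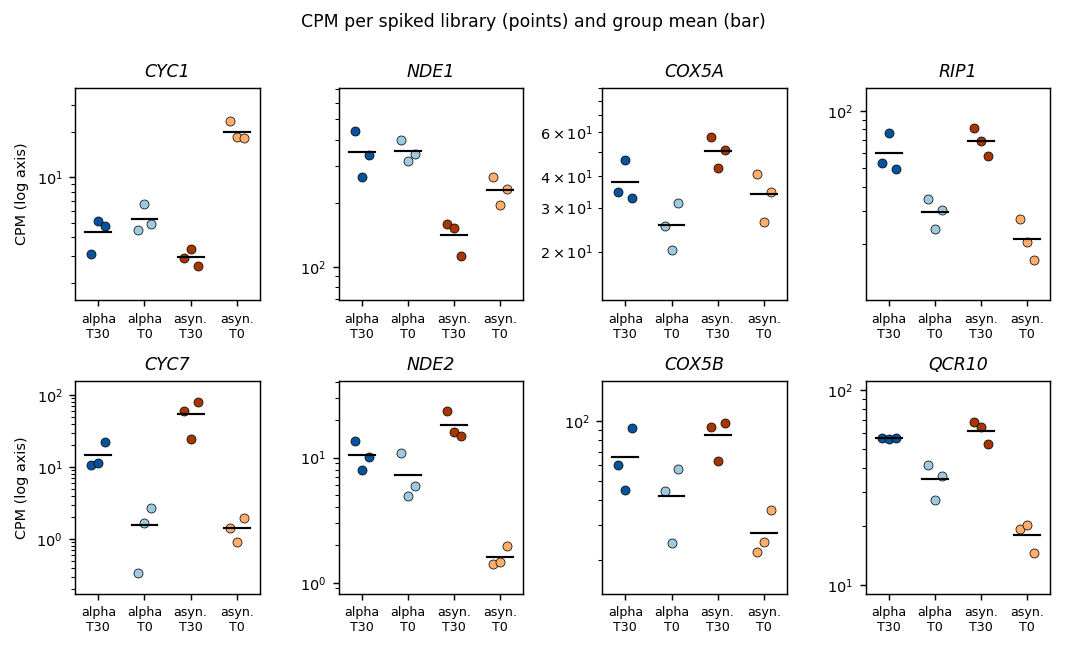
CPM (log axis) in each spiked library for CYC1 and CYC7, NDE1 and NDE2, COX5A and COX5B, and RIP1 and QCR10, with groups from left to right alpha factor T30, alpha factor T0, asynchronous T30 and asynchronous T0. Points are libraries and bars group means; CYC1 lies at 18.1 to 23.4 CPM in asynchronous T0 libraries alone and at 2.57 to 6.61 CPM in the other groups, while CYC7 is higher at T30 than at T0 in both states.

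Across all 39 genes, 16 rose and 2 (CYC1 and NDE1) fell with salt in asynchronous cells, or 18 called where 41.8% of all genes tested were called. By direction, 22.2% of all genes tested were called higher and 19.6% lower. The median change was 0.46 over the members and 0.05 over all genes tested. With library sizes from S. pombe counts all genes shifted up by a median of 0.55, and 16 members rose and 1 fell on that scale. Over all genes tested, 1209 were called higher and 223 lower on it. 14 of the 18 calls held when each of the 6 libraries was left out in turn. The spiked replicate numbers marked pairs by their residuals, and with that block 24 members were called, where 59.5% of all genes were.

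Complex II, succinate dehydrogenase, also feeds the citric acid cycle, and 3 of its 4 genes rose. SDH1 (YKL148C), the flavoprotein subunit, had 429, 222 and 230 CPM in asynchronous T30 libraries, against 108, 57.6 and 77.6 CPM in T0 libraries, and rose by 1.71 ± 0.42 (adjusted p = 0.00566). SDH2 (YLL041C), the iron-sulfur subunit, had 197, 102 and 140 CPM at T30 and 59.9, 33.8 and 42.9 CPM at T0, and rose by 1.53 ± 0.33 (adjusted p = 0.00231). SDH3 (YKL141W), a membrane anchor, had 225, 232 and 218 CPM at T30 and 107, 106 and 101 CPM at T0. The SDH3 groups lay far apart with little spread, and it rose by 0.96 ± 0.16 (adjusted p = 0.00044). SDH4 (YDR178W), the other anchor, had 80.6, 44.9 and 32.8 CPM at T30 and 28.3, 12.6 and 17.6 CPM at T0, with replicate 1 highest at both times. SDH4 missed the threshold at 1.31 ± 0.53 (adjusted p = 0.0623) and passed it with the replicate block at 1.35 (adjusted p = 5.97e-05). SDH1, SDH3 and SDH4 have paralogs in the genome, and of those tested SHH4 rose by 1.97 ± 0.62.

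Complex III, the cytochrome bc1 complex, had 8 of its 9 genes called, while all 5 of the carriers and NADH dehydrogenases were called. The catalytic subunits CYT1 (YOR065W), cytochrome c1, and RIP1 (YEL024W), the Rieske iron-sulfur protein, rose by 1.27 ± 0.24 (adjusted p = 0.00104) and 1.54 ± 0.26 (adjusted p = 0.0005). RIP1 had 81.7, 69.2 and 57.9 CPM in asynchronous T30 libraries, against 27.1, 20.5 and 16.6 CPM in T0 libraries. CYT1 had 164, 148 and 140 CPM at T30 and 69.8, 48.5 and 49.8 CPM at T0. Neither gene's groups overlapped. The core proteins COR1 (YBL045C) and QCR2 (YPR191W) rose by 0.76 ± 0.20 and 1.24 ± 0.27. Of the small subunits, QCR10 (YHR001W-A) had 68.4, 64.9 and 52.7 CPM at T30 and 19.5, 20.3 and 14.6 CPM at T0, and rose by 1.62 ± 0.23 (adjusted p = 0.000125). QCR8 (YJL166W) rose by 1.06 ± 0.18, QCR9 (YGR183C) by 1.35 ± 0.42 and QCR7 (YDR529C) by 0.66 ± 0.21. QCR7 lost its call without any 1 of asynchronous T0 replicates 1 and 2 and T30 replicates 1 and 3, and QCR9 without T30 replicate 1 or T0 replicates 2 or 3. QCR6 (YFR033C), the acidic hinge protein, had 94.7, 115 and 264 CPM at T30 and 75.7, 112 and 153 CPM at T0. Its replicate 3 was the highest at both times, and its change of 0.31 was not called.

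Complex IV, cytochrome c oxidase, had 2 of 9 nuclear subunits called, COX5B and COX7. COX5B (YIL111W) had 93.4, 63.3 and 97.7 CPM in asynchronous T30 libraries, against 22, 24.7 and 35.6 CPM in T0 libraries, and rose by 1.5 ± 0.33 (adjusted p = 0.00272). Its aerobic partner COX5A (YNL052W) had 57.3, 43.3 and 50.8 CPM at T30 and 40.7, 26.3 and 34.6 CPM at T0. These groups did not overlap, but the COX5A change of 0.43 was not called, and it passed with the replicate block (adjusted p = 0.0491). COX5B was 58.5 ± 3.35% of the pair per gene length at T30 and 40.8 ± 8.14% at T0. COX7 (YMR256C), a small subunit, had 60.5, 63.3 and 97.7 CPM at T30 and 35.3, 47.0 and 37.1 CPM at T0. It rose by 0.72 ± 0.27 (adjusted p = 0.046), and that call was lost without any 1 of the 6 libraries (adjusted p 0.0524 to 0.142). The other uncalled subunits, COX4, COX6, COX8, COX9, COX12 and COX13, had changes of -0.09 (COX9) to 0.57 (COX6). COX4, COX6 and COX13 were called with the replicate block, at 0.58 (adjusted p = 0.00881), 0.61 (adjusted p = 0.0088) and 0.45 (adjusted p = 0.0113).

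None of the 12 ATP synthase genes was called in asynchronous cells, 0 also at an unadjusted p under 0.05 and 0 by DESeq2. These changes are relative to the other genes, and with S. pombe library sizes all genes shifted up by a median of 0.55. With those sizes and the replicate block together more members were called, as given in the closing section. That count is larger than the number of members outside the ATP synthase, so it includes ATP synthase genes. Which ones, and the share of all genes called in that fit, are not given here. Their changes ran from -0.49 to 0.28, with a median of 0.13, against medians of 1.24 for complex III and 1.42 for complex II. ATP1 (YBL099W) and ATP2 (YJR121W) encode the alpha and beta subunits of the catalytic head. ATP1 had 484, 506 and 383 CPM at T30 and 452, 342 and 330 CPM at T0, and ATP2 had 562, 820 and 530.4 CPM at T30 and 498, 548 and 632 CPM at T0. Both overlapped between the times, with changes of 0.14 and 0.06. ATP16 (YDL004W), the delta subunit of the rotor stalk, had 152, 137 and 120.2 CPM at T30 and 147, 119 and 104 CPM at T0. ATP3 (YBR039W), the gamma subunit at the centre of the rotor, had 263, 254 and 282 CPM at T30 and 221, 197 and 205 CPM at T0, which did not overlap, but its change of 0.21 was not called. With the replicate block ATP18 (YML081C-A), a small membrane subunit, was lower by 0.52 (adjusted p = 0.0436). The difference between the complexes was not tested.

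**Figure D3:**
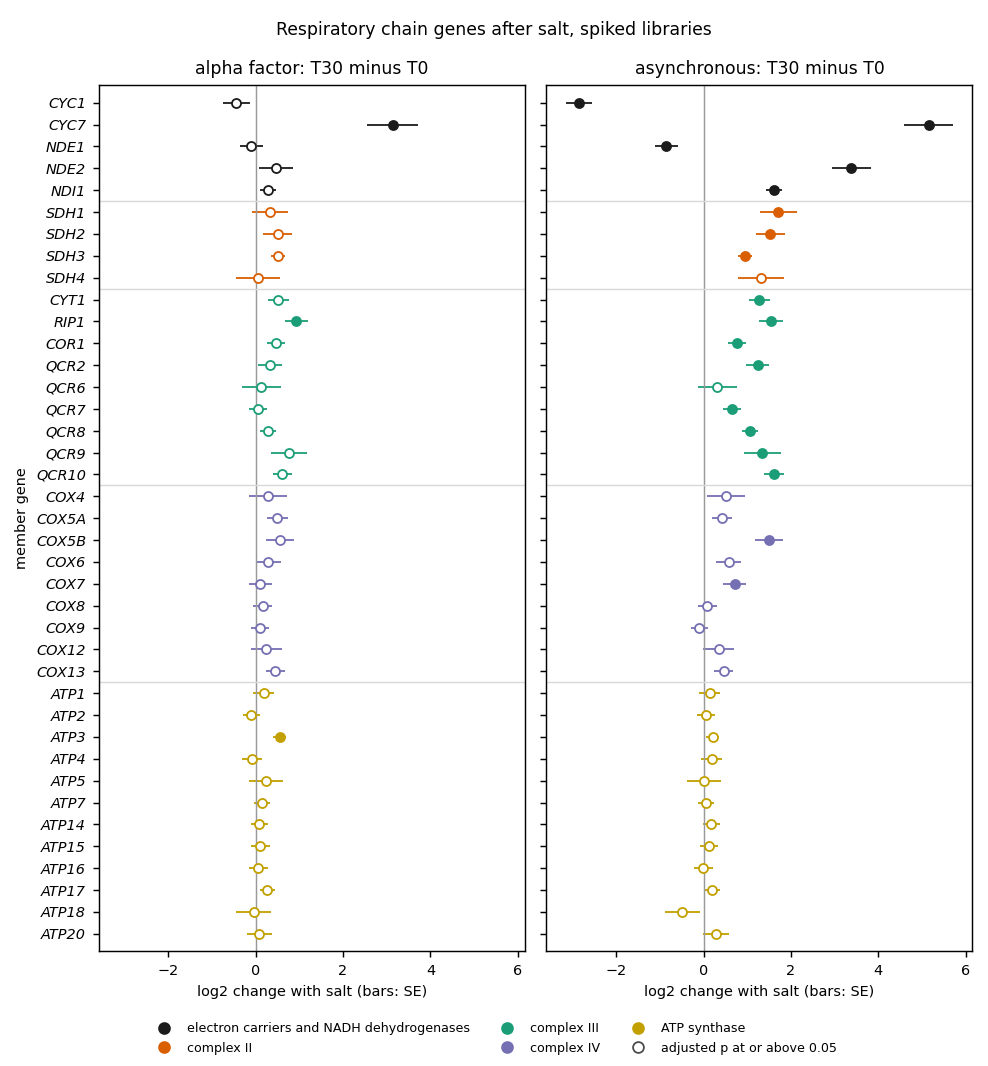
Log2 change with salt (T30 over T0) ± standard error of each of the 39 genes, ordered by role, in alpha factor (left panel) and asynchronous cells (right panel) of the spiked libraries. Filled points have an adjusted p below 0.05 in the fit without the replicate block. The right panel has 18 filled points, mostly in the carriers and complexes II and III, and the left has 3.

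In alpha factor arrest salt called 3 members, CYC7, RIP1 and ATP3, all higher, where 9.09% of all genes tested were called, 5.47% higher and 3.62% lower. CYC7 had 10.8, 11.5 and 22.1 CPM in alpha factor T30 libraries, against 0.342, 1.65 and 2.70 CPM in T0 libraries, of which the first rests on 1 read. It rose by 3.14 ± 0.58 (adjusted p = 0.00532). RIP1 had 53.6, 77.0 and 49.6 CPM at T30 and 34.5, 24.0 and 30.2 CPM at T0, and rose by 0.93 ± 0.26 (adjusted p = 0.0454). ATP3 rose by 0.55 ± 0.15 (adjusted p = 0.043). CYC7 alone held its call without each of the 6 libraries; RIP1 held it only without T30 replicate 3, and ATP3 in no case. With the replicate block 12 members were called, all higher, where 30% of all genes were, and the added ones were SDH2 and SDH3 at 0.51 each, CYT1, COR1, QCR9, QCR10, COX5A, COX5B and COX13. With S. pombe library sizes only CYC7 was called, at 3.61.

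CYC1, NDE2 and NDI1, each called with salt in asynchronous cells, were not called with salt in alpha factor. CYC1 had 3.10, 5.15 and 4.78 CPM in alpha factor T30 libraries, against 4.45, 6.61 and 4.85 CPM in T0 libraries, a change of -0.44 that was not called. NDE2 had 13.6, 7.95 and 10.2 CPM at T30 and 10.9, 4.96 and 5.93 CPM at T0, and these groups overlapped. NDI1 had 80.9, 79.1 and 116 CPM at T30 and 78.7, 57.4 and 76.0 CPM at T0. The difference between the salt changes, alpha factor minus asynchronous, was 2.41 ± 0.44 for CYC1 (adjusted p = 0.0065), -2.93 ± 0.59 for NDE2 (adjusted p = 0.0106) and -1.33 ± 0.26 for NDI1 (adjusted p = 0.00868). These 3 were the members called, where 8.79% of all genes tested were called, 3.73% with a higher and 5.07% with a lower change in alpha factor, and they held without each of the 12 libraries. With S. pombe library sizes NDE2 was called, at -2.99 (adjusted p = 0.0464), and CYC1 and NDI1 were not, at 2.32 (adjusted p = 0.284) and -1.32 (adjusted p = 0.535). Leaving out alpha factor T30 replicate 1 raised the count to 6.

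The CYC7 difference was -2.02 ± 0.89 and was not called (adjusted p = 0.18). With the replicate block 14 members were called, where 31.3% of all genes were. Of these, 12 had a negative difference, alpha factor minus asynchronous, among them CYC7 at -1.95 (adjusted p = 0.042), SDH1 at -1.45, SDH4 at -1.35, SDH2 at -1.01, QCR10 at -0.99, QCR2 at -0.93 and COX5B at -0.91. CYC1 and NDE1, which fell with salt in asynchronous cells, had positive differences, NDE1 at 0.70.

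Before salt, alpha factor cells already differed from asynchronous cells in several of these genes. 6 members were called, 4 higher and 2 lower, where 12.8% of all genes tested were, 8.6% higher and 4.23% lower. CYC1, at 4.45 to 6.61 CPM in alpha factor T0 libraries and 18.1 to 23.4 CPM in asynchronous T0 libraries, differed by -1.85 ± 0.28 (adjusted p = 0.000723). NDE2, at 4.96 to 10.9 CPM in alpha factor T0 libraries and 1.41 to 1.95 CPM in asynchronous T0 libraries, was higher by 2.22 ± 0.47 (adjusted p = 0.00631). NDI1 was higher by 0.67 ± 0.19, QCR8 by 0.68 ± 0.18 and QCR10 by 0.94 ± 0.23, and ATP3 differed by -0.60 ± 0.15. QCR10 had 41.4, 27.3 and 36.1 CPM in alpha factor T0 libraries, against 19.5, 20.3 and 14.6 CPM in asynchronous T0 libraries. ATP3 had 143, 110 and 154 CPM in alpha factor T0 libraries, against 221, 197 and 205 CPM in asynchronous T0 libraries. Neither gene's groups overlapped. CYC1 and NDE2 held without each of the 6 libraries, and the count was 3 without alpha factor T0 replicate 1 or asynchronous T0 replicate 3. With the replicate block 14 members were called, where 29.9% of all genes were, and with S. pombe library sizes CYC1 alone, at -2.03 (adjusted p = 0.0341).

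At T30 the 2 states differed in 3 members, where 12.5% of all genes tested were called, 7.49% higher and 5% lower in alpha factor. CYC7 averaged 14.8 ± 6.33 CPM in alpha factor T30 libraries and 54.4 ± 27.7 CPM in asynchronous T30 libraries (SD, n = 3 each), a difference of -1.82 ± 0.43 (adjusted p = 0.0174). NDE1 had 441, 266 and 341 CPM in alpha factor T30 libraries, against 159, 152 and 112 CPM in asynchronous T30 libraries, and was higher by 1.39 ± 0.26 (adjusted p = 0.00586). NDI1 differed by -0.67 ± 0.18 (adjusted p = 0.0317). CYC1 was close in both states at T30, with 4.34 ± 1.09 CPM in alpha factor and 2.95 ± 0.397 CPM in asynchronous libraries. NDE1 held without each of the 6 libraries, and CYC7 and NDI1 lost their calls without any 1 of alpha factor T30 replicates 1 and 2 and asynchronous T30 replicates 1 and 3. With S. pombe library sizes none was called, and with the replicate block 11 were, where 37.6% of all genes were.

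In cells given cycloheximide, salt raised CYC7, NDE2, COX5B and NDI1, and whether the changes differed from those of untreated cells was not tested. No gradient was run in cycloheximide, so how far translation was inhibited is not known from these libraries. At the label 0.1, 13 members rose and CYC1 fell, 14 called where 33.7% of all genes tested were, 16.3% higher and 17.4% lower. CYC7 had 29.2 and 69.8 CPM in T30 libraries, against 0.991 and 1.13 CPM in T0 libraries, which rest on 4 and 7 reads, and rose by 5.37 ± 0.60 (adjusted p = 9.73e-06). NDE2 had 10.4 CPM in both T30 libraries, against 1.24 and 0.646 CPM in T0 libraries, and rose by 3.43 ± 0.53. COX5B had 79.0 and 115 CPM at T30 and 14.6 and 26.1 CPM at T0, and rose by 2.14 ± 0.27 (adjusted p = 2.8e-05). All 3 genes had T30 libraries above both T0 libraries. NDI1 rose by 2.09 ± 0.32, all 4 SDH genes rose by 0.83 to 1.82, and CYT1, RIP1, QCR2, QCR8 and QCR10 rose by 0.89 to 1.45. SDH2 led complex II, with 146 and 156 CPM at T30 and 41.6 and 38.4 CPM at T0, and rose by 1.82 ± 0.30 (adjusted p = 0.00026). CYT1 led complex III, with 82.7 and 133 CPM at T30 and 29.96 and 43.1 CPM at T0, and rose by 1.45 ± 0.26 (adjusted p = 0.000504).

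CYC1 had 7.95 and 5.93 CPM at T30 and 18.1 and 22.1 CPM at T0 in cycloheximide 0.1, without overlap. It fell by 1.61 ± 0.42 (adjusted p = 0.00753), but not without T30 replicate 2, where the change was -1.25 (adjusted p = 0.089). None of the 12 ATP synthase genes was called, with 1 at an unadjusted p under 0.05 and 0 by DESeq2. In single spiked libraries CYC7 had 57.3 CPM at T30 and 2.37 CPM at T0 with cycloheximide 0.1, and 102 CPM at T30 and 4.76 CPM at T0 with cycloheximide 0.2. Before salt, cycloheximide 0.1 was set against 1 unspiked asynchronous library, which the fit takes to vary like the other groups, so this comparison carries little information. No member was called (5 at an unadjusted p under 0.05, 0 by DESeq2), where 0.0171% of all genes tested were called.

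In nocodazole, where cells are also arrested but in mitosis, salt called 18 of the 39 genes, 17 higher and CYC1 lower, where 31.6% of all genes tested were called, 14.8% higher and 16.8% lower. CYC1 had 3.45, 11.4 and 6.26 CPM in nocodazole T30 libraries, against 43.0 and 37.0 CPM in T0 libraries, and fell by 2.52 ± 0.37 (adjusted p = 0.000135). CYC7 had 165, 112 and 298 CPM at T30 and 10.4 and 10.5 CPM at T0, and rose by 4.14 ± 0.46. NDE2 had 24.1, 25.3 and 53.2 CPM at T30 and 4.83 and 3.41 CPM at T0, and rose by 2.98 ± 0.40 (adjusted p = 5.86e-05). The T30 values are in the order no dose label, 0.5N and 0.7N, and the 0.5N library had the highest CYC1 and the lowest CYC7 of the 3.

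All 4 SDH genes rose in nocodazole by 0.94 to 1.18. SDH2 had 185, 181 and 215 CPM at T30 and 72.9 and 93.8 CPM at T0, and rose by 1.18 ± 0.27 (adjusted p = 0.00347). In complex III RIP1, QCR2, QCR7, QCR8 and QCR10 rose. QCR10 had 71.0, 77.5 and 86.4 CPM at T30 and 20.5 and 26.5 CPM at T0, and rose by 1.70 ± 0.28 (adjusted p = 0.000336). The T30 values of both genes lay close together, also in the 0.5N library. Complex IV had 4 called genes, COX5B at 1.30 ± 0.24, COX7 at 1.36 ± 0.29, and the small subunits COX8 and COX12 at 0.79 and 0.82. COX7 had 74.2, 153 and 111 CPM at T30 and 40.1 and 46.0 CPM at T0. ATP17 (YDR377W), the f subunit of the ATP synthase, had 180, 199 and 161 CPM at T30 and 80.9 and 114 CPM at T0. It rose by 0.85 ± 0.24 (adjusted p = 0.0137) and was the 1 called gene of 12 there. 9 of the 18 calls held without each of the 5 libraries, and the count was 10 without nocodazole T0 replicate 1.

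After 3.5 h of nocodazole 13 members rose and CYC1 fell, 14 called where 28.8% of all genes tested were, 14.1% higher and 14.7% lower. CYC1 had 5.54 and 5.47 CPM at T30 and 54.4 and 42.4 CPM at T0, and fell by 2.99 ± 0.45 (adjusted p = 0.000269). NDE2 had 41.2 and 38.0 CPM at T30 and 3.11 and 5.04 CPM at T0, and rose by 3.41 ± 0.42. Neither gene's groups overlapped. SDH4 had 168 and 109 CPM at T30 and 62.0 and 40.9 CPM at T0, and rose by 1.63 ± 0.36 (adjusted p = 0.00342). QCR10 had 121 and 89.0 CPM at T30 and 34.5 and 45.5 CPM at T0, and rose by 1.58 ± 0.29 (adjusted p = 0.00121). COX8 (YLR395C), a small subunit of complex IV, had 113 and 102 CPM at T30 and 51.6 and 63.2 CPM at T0, and rose by 1.07 ± 0.21 (adjusted p = 0.00187). CYC7 rose by 3.08 ± 0.45, SDH3 by 1.58 and QCR8 by 1.34. No ATP synthase gene was called, with 1 at an unadjusted p under 0.05 and 1 by DESeq2. 7 of the 14 calls held without each of the 4 libraries, and the count was 8 with any 1 of T0 replicate 1, T0 replicate 2 and T30 replicate 1 left out. The count was 9 in a fit of only these 4 libraries. Between 3.5 h and 2 h of nocodazole before salt, the members held 0.641 ± 0.0043% of counts after 3.5 h and 0.487 ± 0.022% after 2 h (SD, n = 2 each). No member was called in the fit of all unspiked salt libraries (7 at an unadjusted p under 0.05, 1 by DESeq2), but 10 were called, all higher after 3.5 h, in a fit of only the libraries compared. The share of all genes called in that smaller fit is not given here. In the fit of all, 0.274% of all genes tested were called, 0.257% higher and 0.0171% lower.

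In the unspiked alpha factor libraries salt called 2 of 39 members, where 5.86% of all genes tested were called, 3.24% higher and 2.62% lower. The count depended on the fit: 12 were called, all higher, in a fit of only the libraries compared, and 4 by DESeq2. The shares of all genes called in those fits are not given here. CYC7 had 38.5, 19.9 and 43.9 CPM at T30 and 3.50 and 3.90 CPM at T0, and rose by 3.11 ± 0.53 (adjusted p = 0.00241), a call lost without alpha factor T0 replicate 1 at 3.05 (adjusted p = 0.0837). ATP7 (YKL016C), a stator subunit, had 132, 147 and 154 CPM at T30 and 82.8 and 84.1 CPM at T0, and rose by 0.71 ± 0.20 (adjusted p = 0.0478), a call lost without any 1 of the 5 libraries. CYC1 had 3.50, 6.43 and 3.18 CPM at T30 and 4.20 and 6.69 CPM at T0, which overlap.

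Set directly against alpha factor, nocodazole had a larger salt change of NDE2 by 2.49 ± 0.54 (adjusted p = 0.0286), the 1 member called where 2.36% of all genes tested were, 1.78% in that direction and 0.583% in the other. That call was lost in 7 of 10 fits that left out 1 library. The CYC1 difference was -2.27 ± 0.62 and was not called (adjusted p = 0.0683). Before salt CYC1 was the 1 called member between the arrests, while a fit of only the libraries compared called 13 and DESeq2 called 2. The shares of all genes called in these alternatives are not given here. CYC1 was at 43.0 and 37.0 CPM in nocodazole T0 libraries and 4.20 and 6.69 CPM in alpha factor T0 libraries. It was higher in nocodazole by 2.97 ± 0.47 (adjusted p = 0.000393), where 8.84% of all genes tested were called, 3.99% higher and 4.85% lower, and it held without each of the 4 libraries. NDE2 was at 4.83 and 3.41 CPM in nocodazole T0 libraries and 10.7 and 11.1 CPM in alpha factor T0 libraries, a difference of -1.38 that was not called.

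Single libraries followed salt to T60 in both arrests. In nocodazole CYC1 was at 43.0 and 37.0 CPM at T0, 9.94 at T15, 3.45 to 11.4 at T30, 18.2 at T45 and 12.8 at T60, so it stayed below both T0 libraries. CYC7 in nocodazole was at 96.8 CPM at T15, 71.8 at T45 and 61.2 at T60, all above its T0 libraries and below its T30 libraries. In alpha factor CYC1 was at 2.42 CPM at T15, 4.55 at T45 and 6.29 at T60, within or near its T0 values. NDE1 was at 173 CPM at T15 and 757 CPM at T45 in nocodazole, and at 134 CPM at T15 and 628 CPM at T45 in alpha factor. In both arrests NDE1 was thus lowest at T15 and highest at T45, with 1 library each and no test.

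**Figure D4:**
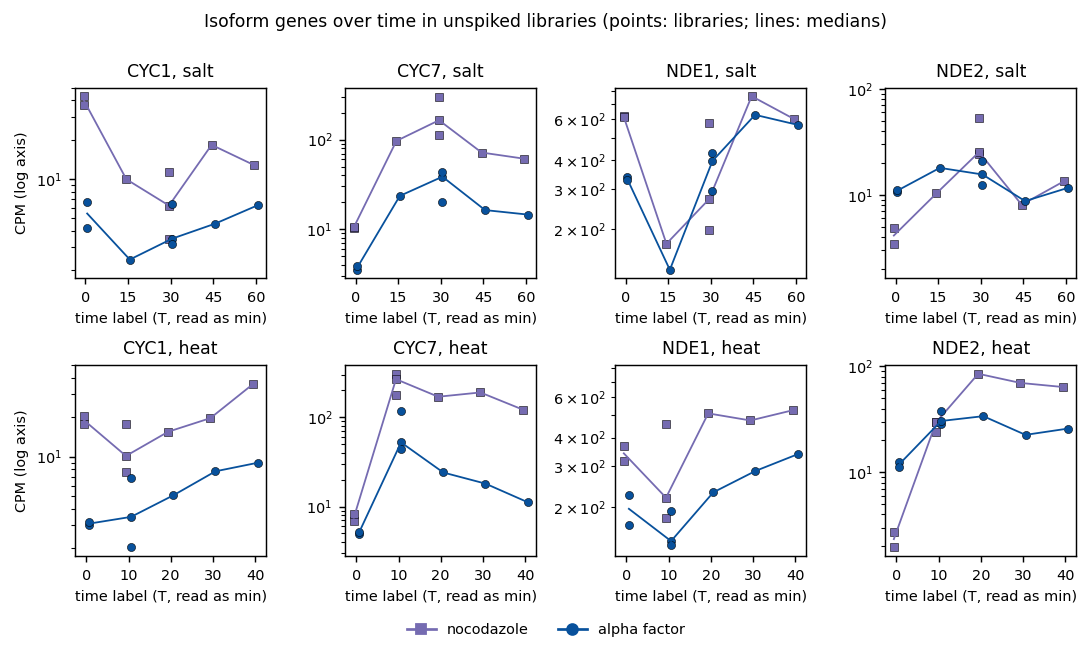
CPM (log axis) of CYC1, CYC7, NDE1 and NDE2 against time in min after salt (top, T0 to T60) and heat (bottom, T0 to T40) in unspiked nocodazole (squares) and alpha factor (circles) libraries. Points are libraries and lines join medians; CYC1 in nocodazole starts at 37.0 to 43.0 CPM before salt and stays below that afterwards, while in alpha factor it lies between 2.42 and 6.69 CPM throughout the salt course.

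At T10 under heat CYC7 and NDE2 had the largest called rises of the members in both arrests, and CYC1 was not called. In nocodazole 13 members rose and none fell 10 min after heat, where 33.1% of all genes tested were called, 16.3% higher and 16.8% lower. In alpha factor 6 rose and none fell, where 15.3% were called, 7.05% higher and 8.24% lower. CYC7 had 306, 178 and 266 CPM in nocodazole T10 libraries, against 6.85 and 8.17 CPM in T0 libraries, and rose by 5.12 ± 0.53 (adjusted p = 8.24e-05). In alpha factor it had 52.2, 44.0 and 117 CPM at T10 and 4.98 and 5.16 CPM at T0, and rose by 3.85 ± 0.52 (adjusted p = 0.00145). T10 values are in the order no temperature label, 33c and 37c, and the 33c library had the lowest CYC7 in both arrests.

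NDE2 rose by 3.59 ± 0.32 in nocodazole (adjusted p = 3.7e-05), with 29.7, 24.0 and 29.6 CPM at T10 and 1.96 and 2.72 CPM at T0. It rose by 1.5 ± 0.26 in alpha factor (adjusted p = 0.00499), with 37.8, 28.8 and 30.5 CPM at T10 and 12.4 and 11.2 CPM at T0. The T10 levels of NDE2 lay close together in the arrests, and its T0 level was the higher in alpha factor. The difference between these changes was 2.09 ± 0.41 (adjusted p = 0.0446), the 1 member called where 1.37% of all genes tested were (0.791% and 0.58% by direction), and it was lost in 9 of 10 fits that left out 1 library.

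CYC1 had 7.62, 17.7 and 10.1 CPM in nocodazole T10 libraries, against 17.6 and 20.4 CPM in T0 libraries, a change of -0.60 that was not called. In alpha factor CYC1 had 2.02, 6.82 and 3.45 CPM at T10 and 2.99 and 3.14 CPM at T0, a change of 0.45 that was not called. Later single libraries in nocodazole had CYC1 at 15.5 CPM at T20, 19.7 at T30 and 35.6 at T40, the last above both T0 libraries. In alpha factor CYC1 was at 8.96 CPM at T40, also above both T0 libraries, and neither course was tested. COX5B rose by 1.81 ± 0.30 in nocodazole (adjusted p = 0.00124) and by 1.43 ± 0.29 in alpha factor (adjusted p = 0.011), and COX5A was not called in either. COX5B had 128, 118 and 153 CPM in nocodazole T10 libraries, against 28.4 and 51.1 CPM in T0 libraries. In alpha factor it had 110.3, 115 and 152 CPM at T10 and 50.5 and 46.4 CPM at T0. The T10 levels of COX5B overlapped between the arrests, and the difference between its changes was not called. In nocodazole all 4 SDH genes rose by 1.06 to 1.89, NDI1 by 1.38 ± 0.21, and CYT1, RIP1, QCR2, QCR9 and QCR10 by 1.13 to 1.60. SDH1 had 294, 372 and 355 CPM in nocodazole T10 libraries, against 87.7 and 106 CPM in T0 libraries, and rose by 1.89 ± 0.23 (adjusted p = 0.000213). In alpha factor SDH1 had 289, 309 and 274 CPM at T10 and 142 and 192 CPM at T0, and rose by 0.84 ± 0.22 (adjusted p = 0.0311). The T10 values again lay near each other in the arrests. QCR10 had 30.1, 46.6 and 53.6 CPM in nocodazole T10 libraries, against 11.4 and 18.6 CPM in T0 libraries, and rose by 1.60 ± 0.40 (adjusted p = 0.0114). In alpha factor CYT1 and QCR9 rose by 0.81 and 0.88. None of the 12 ATP synthase genes was called in nocodazole (2 at an unadjusted p under 0.05, 0 by DESeq2) or in alpha factor (0 and 0).

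Of the nocodazole heat calls 9 held without each of the 5 libraries, and the count was 9 without T0 replicate 1. In alpha factor CYC7 and NDE2 held, and the count was 2 without T0 replicate 1. Asynchronous cells had 1 library per time under heat, so there is no replicate check. CYC1 had 4.38 CPM at T10 and 11.9 CPM at T0 there, CYC7 206 CPM at T10 and 1.74 CPM at T0, and COX5B 153 CPM at T10 and 17.4 CPM at T0.

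Gradient fractions gave the share of each transcript's counts in polysomes, the fractions labelled 2R and above, after scaling each fraction by its added S. pombe RNA. This scaling assumes equal S. pombe RNA in every fraction, and the percentages depend on that assumption. 38 members passed the minimum of 10 CPM over the inputs; COX7 did not. The median member had 53.6 and 40.8% of its counts in polysomes in the asynchronous T30 gradients and 42.2 and 33.4% in the T0 gradients, where the median gene had 32.0 and 23.2% at T30 and 24.6 and 20.02% at T0. In the 1 alpha factor T0 gradient the median member had 56.8% and the median gene 37.4%. The median member thus lay above the median gene in all 5 gradients, as a description without a test.

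The members differed widely in polysome share. ATP2 had 72.4 and 56.3% of its counts in polysomes at asynchronous T30 and 66.1 and 58.7% at T0. QCR6 had 29.2 and 16.6% at T30 and 12.7 and 11.4% at T0, the T0 gradients lying below both T30 gradients. CYC7, whose RNA rose most, had 49.0 and 31.6% at T30 and 29.2 and 19.7% at T0. CYC1 had 51.1 and 51.9% at T30 and 49.7 and 40.9% at T0, so its polysome share was not lower where its RNA was. The shares of both cytochrome c genes rest on few reads. CYC7 had 0 to 4 reads per fraction at T0 in replicate 1 and 0 to 19 in replicate 2. CYC1 had 2 to 21 reads per fraction at T30 in replicate 1 and 2 to 13 in replicate 2.

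The log2 ratio of polysomal to lighter fractions rose by a median of 0.58 over the members and 0.36 over all genes. No member was called by limma (7 at an unadjusted p under 0.05), where 2.47% of all 5053 genes tested were, 2.3% higher and 0.178% lower, and DESeq2 was not run on these ratios. The largest were QCR9 at 1.47 (adjusted p = 0.089) and COX6, a complex IV subunit, at 1.45 (adjusted p = 0.0971). QCR9 had 57.7 and 53.0% in polysomes at T30 and 41.0 and 22.3% at T0, and COX6 63.2 and 40.8% at T30 and 22.4 and 35.4% at T0. CYC7, on few reads at T0, had a log2 ratio change of 1.06, and QCR6 had one of 1.07. NDE1 and NDE2, with changes of -0.19 and 0.70, and COX5A and COX5B, with 0.80 and 0.05, were not called. NDE2 had 0 to 3 reads per fraction at T0 in replicate 1 and 0 to 6 in replicate 2. COX5B had 40.5 and 40.3% in polysomes at T30 and 37.1 and 42.0% at T0, so its groups overlapped. Replicate 2 lay below replicate 1 in the medians at both times, and with the replicate number as a block 13 members were called, all higher. Leaving out T30 replicate 2 gave 9 calls, scaling the fractions by S. cerevisiae totals gave 21, and counting fractions 3R and above as polysomes gave 1. The share of all genes called with the block or under these settings is not given here, so these counts were not set against it.

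**Figure D5:**
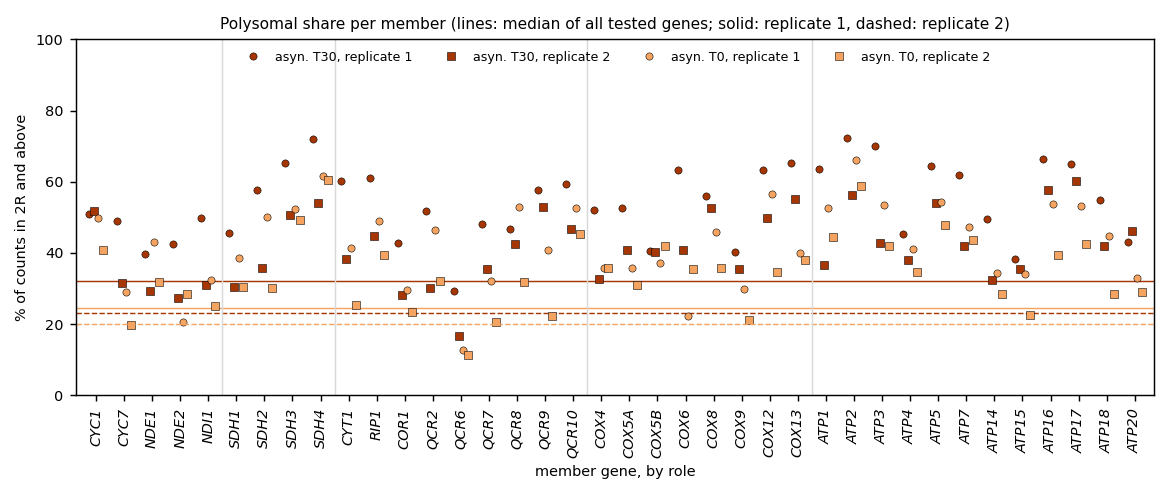
Percent of each member's scaled counts in fractions 2R and above, for the 38 members tested, in asynchronous T30 replicates 1 and 2 and T0 replicates 1 and 2. Points are genes grouped by role and horizontal lines the medians of all genes tested; most members lie above the line in every gradient, and QCR6 lies below it.

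Genes that work with the chain were followed as lists, also chosen with earlier results of these data known. The electron donors to cytochrome c and ubiquinone rose too: in asynchronous cells CYB2, L-lactate dehydrogenase, rose by 2.64 ± 0.46 with salt, GUT2, mitochondrial glycerol-3-phosphate dehydrogenase, by 2.51 ± 0.31, and DLD1, D-lactate dehydrogenase, by 0.89 ± 0.29, which is 3 of 3. Among 5 further genes linked to the ATP synthase 3 rose, STF2 at 4.09 ± 0.31, STF1 at 2.48 and INH1, the ATPase inhibitor, at 2.32. TIM11 at 0.48 and ATP19 at -0.54 were not called, nor were the subunits among the members. Of 11 citric acid cycle genes 4 rose, among them CIT1, citrate synthase, at 1.34 ± 0.23, and ACO1, aconitase, fell by 1.37 ± 0.27. Of 16 assembly factors SHY1 at 1.07 ± 0.19, SCO1 at 0.62 and ATP10 at 0.68 rose. Both counts were near the share called over all genes tested, 41.8% in either direction and 22.2% higher. None of the 7 respiratory genes of the mitochondrial genome was called (0 at an unadjusted p under 0.05, 0 by DESeq2), with a median change of -0.25. The list medians were 2.51 for the donors, 2.32 for the 5 further ATP synthase genes, 0.56 for the citric acid cycle, 0.25 for the assembly factors and 0.32 for the 9 regulators, against 0.05 over all genes tested.

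In alpha factor, salt called STF2 of these lists at 2.07 ± 0.28. Set against asynchronous cells, the salt change in alpha factor differed for CYB2 by -2.27, GUT2 by -1.50, STF2 by -2.03, STF1 by -1.81 and SHY1 by -1.20, each called as a difference. Before salt CYC3, the cytochrome c heme lyase gene, was higher in alpha factor than in asynchronous cells by 1.82 ± 0.29, and CIT1 by 1.32. STF1 and STF2 were higher there too, by 1.85 ± 0.38 (adjusted p = 0.0058) and 1.21 ± 0.30 (adjusted p = 0.0159), and at T30 the differences of STF1 and STF2 were 0.04 and -0.81 and were not called.

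The regulators did not move as 1 group. HAP4, the activating subunit of the Hap2/3/4/5 complex, averaged 30.6 ± 4.96 CPM in asynchronous T30 libraries and 51.4 ± 13.6 CPM in T0 libraries (SD, n = 3 each), and fell by 0.89 ± 0.23 (adjusted p = 0.00797). In alpha factor HAP4 averaged 58.1 ± 12.8 CPM at T30 and 60.9 ± 16.5 CPM at T0. HAP1 averaged 994 ± 127 CPM in asynchronous T30 libraries and 477 ± 38.6 CPM in T0 libraries, and rose by 0.91 ± 0.23 (adjusted p = 0.00696). S288C strains are known to carry a Ty element in HAP1, so these counts do not stand for an intact gene. HAP2 rose by 1.04 ± 0.25, and ROX1, a repressor of hypoxic genes, was at -0.17 ± 0.53 and was not called. ROX1 varied within its groups, from 47.2 to 141 CPM at T30 and from 37.6 to 152 CPM at T0, with replicate 1 lowest at both times.

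HAP4 rose at T10 of heat in both arrests, where it had fallen at T30 of salt in asynchronous cells. It had 183, 198 and 189 CPM in nocodazole T10 libraries, against 44.0 and 55.6 CPM in T0 libraries, and rose by 2.00 ± 0.20 (adjusted p = 6.05e-05). In alpha factor it had 70.9, 85.7 and 77.6 CPM at T10 and 25.1 and 26.7 CPM at T0, and rose by 1.63 ± 0.20 (adjusted p = 0.00104). With salt in nocodazole HAP4 had 46.4, 87.8 and 71.0 CPM at T30 and 112 and 141 CPM at T0, and fell by 0.92 ± 0.27 (adjusted p = 0.0152). Single nocodazole libraries had HAP4 at 27.2 CPM at T15, 146 at T45 and 71.8 at T60, so the T45 library lay above both T0 libraries. All 3 electron donors were called higher under heat in both arrests, CYB2 and GUT2 by 3.67 and 2.60 in nocodazole and by 2.07 and 1.26 in alpha factor. Before salt HAP4 was higher in nocodazole than in alpha factor by 1.60 ± 0.31 (adjusted p = 0.0028), as CYC1 was. Whether HAP4 or any other regulator had a part in the members' changes was not tested.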

How the data were processed

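The deposited values are raw counts of reads per open reading frame. The authors used Trimmomatic 0.32, Bowtie2 and HTSeq 0.6.1, per the submitters' processing notes. The build, the annotation and whether counting used strand are not given in these sources. Per the labels' protocols, RNA came from a hot phenol extraction and Ribo-Zero depletion, with ScriptSeq v2 kits for whole cells and TruSeq Stranded kits for gradients. The S. pombe share of counts was 5.53 to 14.2% in spiked libraries and 5.7 to 49.4% in gradient libraries. Rows that name no gene (0.00248 to 0.00545% of a library) and 70 count columns that match no labelled sample were left out.

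Libraries were grouped by the labels' state, stress and time, with the labels 0.5N, 0.7N, 33c and 37c pooled with the libraries without a dose. The 16 spiked, 22 unspiked salt and 12 unspiked heat libraries were fitted separately in edgeR 4.0.16 under R 4.3.3, after filterByExpr and TMM, with two-sided quasi-likelihood tests adjusted over all genes. Residual degrees of freedom were 8, 10 and 6, and the biological coefficient of variation 0.245, 0.214 and 0.270. Differences between responses were interaction contrasts. Polysome ratios compare fractions 2R and above with RNP, 40S, 60S and 80S, each scaled by S. pombe counts with an offset of 1 read, in limma 3.58.1. Alternatives were DESeq2 1.42.0, RLE size factors, no filter on low counts, S. pombe library sizes, a replicate block, only the compared libraries, and each library left out. The main fits held the group only and ignored replicate numbers. Same-numbered spiked libraries of different groups had residuals correlating at 0.313 to 0.706 (18 pairs). They were read as paired, but that pairing entered only the fits with the replicate block. The unspiked ones (-0.441 to 0.654 for salt, -0.512 to 0.798 for heat) were not read as paired. Named genes are those called in a comparison, the isoform pairs, and the largest changes of each list. Scripts were tested on simulated data. The members and lists were chosen with earlier results of these data known. Gene lengths and symbols are from the RefSeq R64 gene table.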

Additional observations from a re-analysis of the deposited data

Results flagged for a closer look

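Salt changes of 3 members differed between states by a test of the difference itself in the spiked libraries, alpha factor minus asynchronous. The difference was 2.41 on the log2 scale for CYC1, -2.93 for NDE2 and -1.33 for NDI1. All 3 were also called as different between these states before salt, so the T0 level moved with the difference; its part was not tested. In the unspiked libraries, nocodazole minus alpha factor, the NDE2 difference was 2.49 with salt and 2.09 with heat. No group had 4 or more libraries, so no library could be tested as lying apart from its group.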

How the results depend on the processing

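Counts are of called members. Where no share over all genes is given above for a setting, it is not given here either. RLE size factors, the lower minimum on inputs and the larger offset moved no count beyond 1.5 times. With the replicate block 12 were called for salt in alpha factor, 14 for its difference from asynchronous cells, 14 and 11 between these states at T0 and T30, 13 for heat in alpha factor and 13 polysome ratios. S. pombe library sizes gave 1, 1, 1 and 0 for the spiked comparisons other than salt in asynchronous cells, and with the block added 12, 5, 3 and 8, and 29 in asynchronous cells. Fits of only the compared libraries gave 1 at T30, and in unspiked libraries 12 for salt in alpha factor, 9 after 3.5 h nocodazole, 13 between nocodazole and alpha factor before salt and 10 between 3.5 h and 2 h nocodazole. DESeq2 gave 4 for salt in unspiked alpha factor, 2 for the salt and 2 for the heat difference between arrests, 2 between arrests before salt and 1 between nocodazole times. No filter on low counts gave 1 for unspiked alpha factor salt. Leaving out both 0.5N libraries gave 1 there and 2 for the salt difference between arrests, and leaving out both 33c libraries 0 for the heat difference. Polysome calls were 21 with S. cerevisiae totals and 1 with fractions 3R and above. The choice to leave out the 0.5N or 33c libraries, and to join the block with S. pombe sizes, was made after seeing the data.

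Leaving out 1 library gave 15 to 18 for salt in asynchronous cells, 1 to 2 in alpha factor, 3 to 6 for the difference, 3 to 5 at T0 and 1 to 4 at T30. In unspiked libraries it gave 0 to 2 (alpha factor), 10 to 21 (nocodazole), 8 to 17 (3.5 h), 12 to 14 (cycloheximide), 0 to 3 (salt difference between arrests), 2 to 6 and 9 to 15 (heat in alpha factor and nocodazole), 0 to 1 (heat difference) and 0 to 9 (polysomes).

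Uncalled values changed sign in 6 cases, and the cause was not tested. ROX1 with salt in asynchronous cells was 0.31 with S. pombe sizes, 0.48 with the block added and -0.60 to 0.19 with 1 library left out. CYC1 with salt in alpha factor was 0.058 with S. pombe sizes and 0.024 with the block added in spiked libraries, and -0.72 to 0.0053 with 1 left out in unspiked ones. CYC1 with heat in alpha factor was -0.10 without the 33c libraries and -0.10 to 0.77 with 1 left out. SDH1 with salt in spiked alpha factor was -0.19 to 0.63, and QCR6 in asynchronous cells -0.17 to 0.54. Low counts limit CYC1, CYC7 and NDE2, whose lowest values rest on under 10 reads.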
